A study of Mus musculus with 2 samples.

Results

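Barcodes of the E12.5 mouse limb library that carried Calb2, Dkk2, Kera and Apod RNA together are described here. A barcode was taken if at least 2 of these 4 genes had a UMI and if Myog, Cdh5, Ptprc, Gdf5 and Grem1 had none, which are markers of myocytes, endothelium, immune cells, the joint interzone and a Grem1-expressing mesenchyme. UMIs are the molecule tags by which PCR copies of a captured RNA are counted once. The rule was met by 466 of 12271 kept E12.5 barcodes, which is 3.80% (95% exact binomial interval 3.47 to 4.15%). The whole series held 16377 kept barcodes. They are called rule-positive barcodes below, and the 11805 other kept E12.5 barcodes are the comparison unless another is named.

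The series holds 1 library from wild-type C57Bl/6 embryos at E12.5 and 1 at E15.5, both from limb skeletal muscle tissue freed mechanically and with trypsin. Each library mixed fore- and hindlimb tissue, and how many embryos of which sex were used is not given in the labels. Neither age carried a transgene or a treatment. With 1 library per age there was no replicate and no test between groups. Levels are summed UMIs as CPM, the usual scaling to a fixed total, and all intervals are 95% intervals for counting error only. Cells of a library share its preparation and are not replicates.

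The 4 rule genes encode unrelated proteins. Dkk2 is a secreted modulator of Wnt signalling that binds LRP co-receptors, Calb2 encodes the calcium-binding protein calretinin, Kera encodes keratocan, a small leucine-rich proteoglycan known from the cornea and from tendon, and Apod encodes apolipoprotein D, a lipid-carrying lipocalin. Mesenchyme of the early limb supplies its cartilage, tendon, muscle connective tissue and dermal cells. Collagen fibrils of such connective tissues are organised by proteoglycans such as lumican and decorin and are crosslinked by lysyl oxidase.

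The E12.5 library held 12941 deposited barcodes with 34907675 UMIs, and its kept barcodes had a median of 2453 UMIs. At E15.5 there were 5780 barcodes and 46966083 UMIs in all, and the 4106 kept barcodes had a median of 9518. Rule-positive barcodes were slightly deeper than the others, with a median of 2867.5 against 2435 UMIs and a range of 876 to 12396. Their median mitochondrial share was 2.95% against 3.04%. The libraries shared 17 barcode sequences, of which 1 was rule-positive at E12.5. Among rule-positive barcodes whose UMIs gave a sex, 20.5% (16.3 to 25.3%) were male, against 22.4% of the others.

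Dkk2 was the gene most often behind the choice. It was detected in 400 of the 466 barcodes (85.8%), Kera in 273 (58.6%), Apod in 195 (41.8%) and Calb2 in 190 (40.8%). Hence 276 of the 466 carried no Calb2 UMI, although Calb2 gives the group its working name. The commonest combinations were Dkk2 with Kera in 136 barcodes, Dkk2 with Apod in 98 and Calb2 with Dkk2 in 66, while 13 barcodes held all 4. The 4 genes together gave a median of 4 UMIs per barcode, with a lowest of 2 and a highest of 23. The choice therefore rested on few molecules per barcode. At the threshold, 353 barcodes met the exclusions with exactly 2 rule genes and 1673 met them with 1.

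The levels that the rule itself set were as follows, and are given as a description. Calb2 stood at 270 CPM in rule-positive barcodes and 9.68 CPM in the others. Dkk2 stood at 527 against 74.9 CPM, Kera at 314 against 24.5 CPM and Apod at 164 against 13.3 CPM. After thinning to 2000 UMIs, Dkk2 was detected in 10.99% of depth-matched barcodes without 2 rule genes and Calb2 in 0.524%.

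Over all E12.5 barcodes thinned to 2000 UMIs, each rule gene was detected more often where another of the 4 was detected. Dkk2 was detected in 42.8% (36.3 to 49.5%) of 229 barcodes with Calb2 and in 12.54% (11.8 to 13.3%) of 7983 without it. Kera was detected in 24.0% of barcodes with Calb2 against 4.06% without, and Apod in 17.9% against 3.39%. Among barcodes with Dkk2, 14.8% held Kera against 3.04% of those without, and 10.2% held Apod against 2.81%. Apod was found in 12.4% of barcodes with Kera and in 3.38% of those without. These are the genes and values that the rule used, and they describe why the genes were grouped.

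The exclusion of Grem1, a secreted BMP antagonist, removed far more candidates than the other 4 exclusions. Of 182 barcodes with 2 or more rule genes that were left out, 157 had a Grem1 UMI, 13 Gdf5, 12 Myog, 6 Cdh5 and 1 Ptprc. Grem1 was detected in 24.2% (21.0 to 27.7%) of kept barcodes with 2 or more rule genes, in 10.0% (8.74 to 11.4%) of those with 1 and in 3.70% (3.33 to 4.09%) of those with none. Median depth moved the same way, at 2958.5, 2720.5 and 2371 UMIs, and its part in the difference was not tested. Gdf5, the joint interzone growth factor, had the opposite order, at 2.01%, 2.96% and 8.11%.

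Outside the 9 genes of the rule, 13636 genes had at least 50 UMIs over both groups. Of these, 62 (0.455%) were at least 2-fold higher in rule-positive barcodes and 111 (0.814%) were at least 2-fold lower, with 10 CPM added to both sides. The median gene had a log2 ratio of -0.01. A depth-matched set of 466 barcodes that also lacked the 5 excluding genes gave 70 (0.903%) higher and 74 (0.955%) lower genes of 7752. All 9596 other barcodes without the excluding genes gave 69 (0.534%) higher and 72 (0.557%) lower genes of 12933. Genes are named below if they ranked highest in both comparisons, 20 on the higher and 10 on the lower side. Since they were picked on these ratios, the ratios describe them and are no separate support.

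Among the named higher genes were 5 that encode extracellular matrix proteins or a matrix enzyme. Lum, lumican, a small leucine-rich proteoglycan of collagen fibrils, stood at 523 CPM (487 to 560) against 105 CPM (101 to 108) in other barcodes, a log2 ratio of 2.21. Dcn, decorin, of the same family, stood at 159 against 51.9 CPM (1.45). Lox, the lysyl oxidase that crosslinks collagen and elastin, stood at 182 against 47.9 CPM (1.73). Fbln1, fibulin 1 of the elastic fibre and basement membrane, stood at 425 against 144 CPM (1.50). The counting intervals of the groups were apart for each of these 4 genes.

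Col1a1, the main chain of type I collagen, stood at 1101 CPM (1049 to 1155) against 405 CPM (398 to 412), a log2 ratio of 1.42. Of the 21 collagen chains in the list, all of which had enough UMIs, 4 were at least 2-fold higher (0.455% of all genes). None was 2-fold lower (0.814%). The 4 higher chains were Col1a1, Col1a2 at 1482 against 677 CPM, Col3a1 at 2742 against 1208 CPM and Col5a2 at 562 against 229 CPM. All are chains of fibrillar collagens. Cartilage chains, such as Col2a1, which is also fibrillar, and Col9a1, were not on this list. They were counted on the chondrocyte list, where all genes were at least 2-fold lower. The list had a median log2 ratio of 0.45 and 14 chains above 0, where all genes had a median of -0.01 and 47.7% above 0. Basement membrane chains lay closer to the others, with Col4a1 at 136 against 168 CPM.

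Transcription factors among the named genes were Emx2, Osr1 and Prox1. Emx2, a homeobox factor of the proximal limb and girdle field, stood at 184 CPM (164 to 207) against 49.9 CPM (47.5 to 52.4). Osr1, a zinc finger factor of muscle connective tissue progenitors, stood at 180 against 57.9 CPM (1.48). Prox1, a homeobox factor known from lymphatic vessels, liver and muscle, stood at 66.0 against 16.5 CPM (1.52). Emx2os, an RNA transcribed opposite to Emx2, stood at 105 against 24.2 CPM. Emx2os (chromosome 19, 59425104 to 59458635, minus strand) and Emx2 (59458372 to 59465357, plus strand) overlap at their starts in GRCm38, so that reads from the overlap cannot be told apart unless counting used the strand, which is not given in the sources used here.

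Arhgap20 had the largest ratio of the 20. It stood at 177 CPM (156 to 199) against 27.6 CPM (25.8 to 29.4), a log2 ratio of 2.31. Dnm3, a dynamin of membrane scission, stood at 212 against 55.6 CPM, and Kctd12, an auxiliary subunit of GABA-B receptors, at 563 against 171 CPM. Agtr2, the angiotensin II type 2 receptor, stood at 101 against 30.3 CPM. Gap43, a growth cone protein, stood at 148 against 51.6 CPM, and Camk4, a calcium/calmodulin-dependent kinase, at 49.2 against 9.46 CPM. The remaining higher genes were the membrane protein genes Tmem26, Tmem132c and Tmtc2, with log2 ratios of 1.69, 1.59 and 1.45, together with Wnt11 and Apcdd1.

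**Figure D1:**
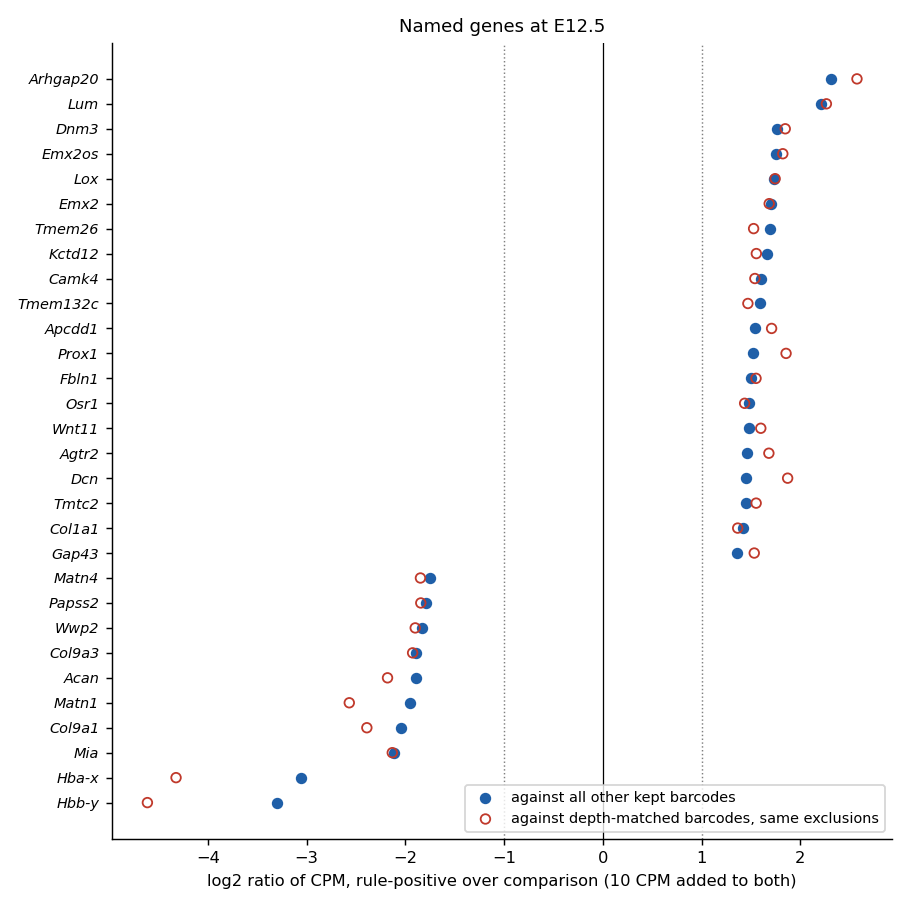
Log2 ratio of CPM in rule-positive over comparison barcodes at E12.5, with 10 CPM added to both sides, for the 20 higher and 10 lower named genes (rows). Filled points are against all other kept barcodes and open circles against depth-matched barcodes with the same exclusions. All points lie outside the dotted lines at 2-fold, from 1.36 for Gap43 to 2.57 for Arhgap20 on the higher side.

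Detection per barcode was compared after thinning to 2000 UMIs, which left 382 rule-positive barcodes and left out 84. Lum was detected in 58.4% (53.3 to 63.4%) of them and in 14.1% (10.8 to 18.0%) of 382 depth-matched barcodes. Kctd12 was detected in 58.4% against 24.6%, and Arhgap20 in 29.8% against 3.66%. Col1a1 was detected in 80.6% (76.3 to 84.5%) against 42.7%, and Dcn in 20.7% against 3.93%. The 20 genes were picked for their ratios against these same barcodes, so the gaps describe that choice.

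RNA free in the suspension gives UMIs in cells that do not express a gene, so the same shares were taken in barcodes that should lack connective tissue RNA. These were 145 endothelial barcodes with a median of 4266 UMIs and 240 muscle barcodes with a median of 4232.5, each holding at least 2 of 4 markers of its class. Lum was detected in 2.07% of the endothelial and 3.33% of the muscle barcodes. Shares were above those of endothelial barcodes, with intervals apart, for 18 of the 20 genes, and above those of muscle barcodes for 19. The exceptions were Gap43, found in 36.6% of endothelial barcodes against 22.3% of rule-positive ones, Camk4 at 3.45% of endothelial against 8.90%, and Prox1, found in 21.7% of muscle barcodes against 11.5%. Lox, Wnt11 and Tmem132c were found in no endothelial barcode, which allows a share of up to 2.07% (3 counts of the total).

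**Figure D2:**
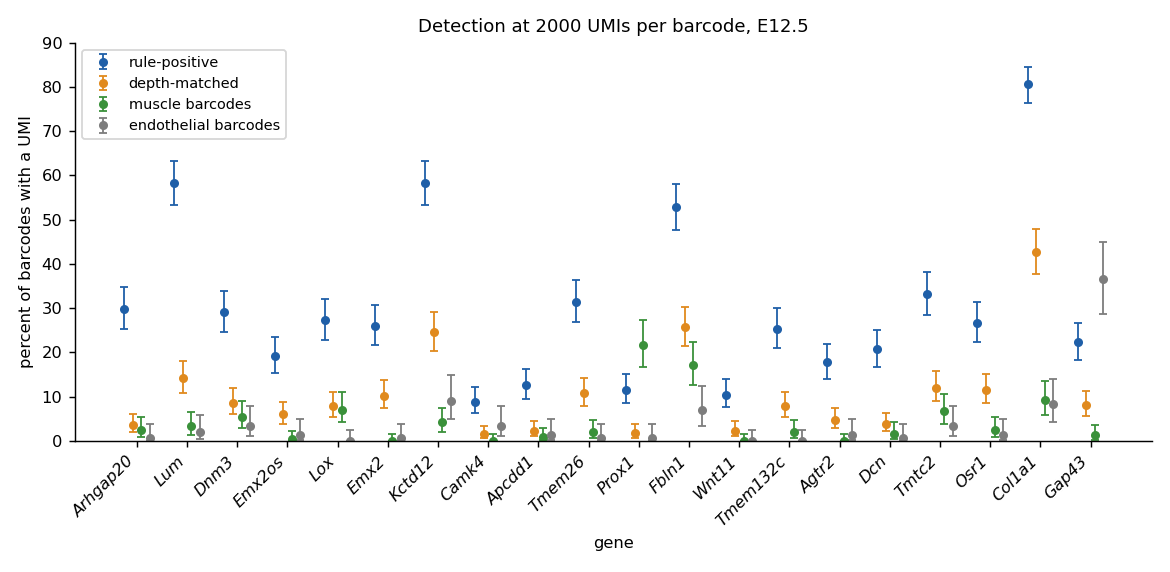
Percent of E12.5 barcodes with at least 1 UMI of each higher named gene after thinning to 2000 UMIs, with 95% exact binomial intervals, in rule-positive, depth-matched, muscle and endothelial barcodes. Rule-positive barcodes stand above the depth-matched ones for every gene shown, while Prox1 is highest in muscle (21.7%) and Gap43 in endothelial barcodes (36.6%).

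Levels are also given by the number of rule genes detected, over barcodes that met the exclusions. The genes were picked for a higher level with 2 or more rule genes, so the step from 0 to 2 was set by that choice. Lum stood at 73.0 CPM (69.4 to 76.8) in 7923 barcodes with no rule gene, at 225 CPM in the 1673 with 1, at 476 CPM in the 353 with 2 and at 656 CPM (579 to 740) in the 113 with 3 or 4. Arhgap20 stood at 17.2, 57.4, 161 and 223 CPM in the same order. Barcodes with 1 rule gene lay between those with 0 and 2 for all 20 genes, and 16 were higher with 3 or 4 rule genes than with 2. Osr1 was not, at 183 CPM with 2 rule genes and 170 CPM with 3 or 4, where intervals overlapped. Among the 16, these intervals also overlapped for Arhgap20 (138 to 185 against 179 to 274 CPM), Emx2, Emx2os, Apcdd1, Wnt11, Tmem132c, Agtr2, Tmtc2 and Gap43. They were apart for the others of the 16. Sox9 ran the other way, at 907, 466, 250 and 143 CPM.

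**Figure D3:**
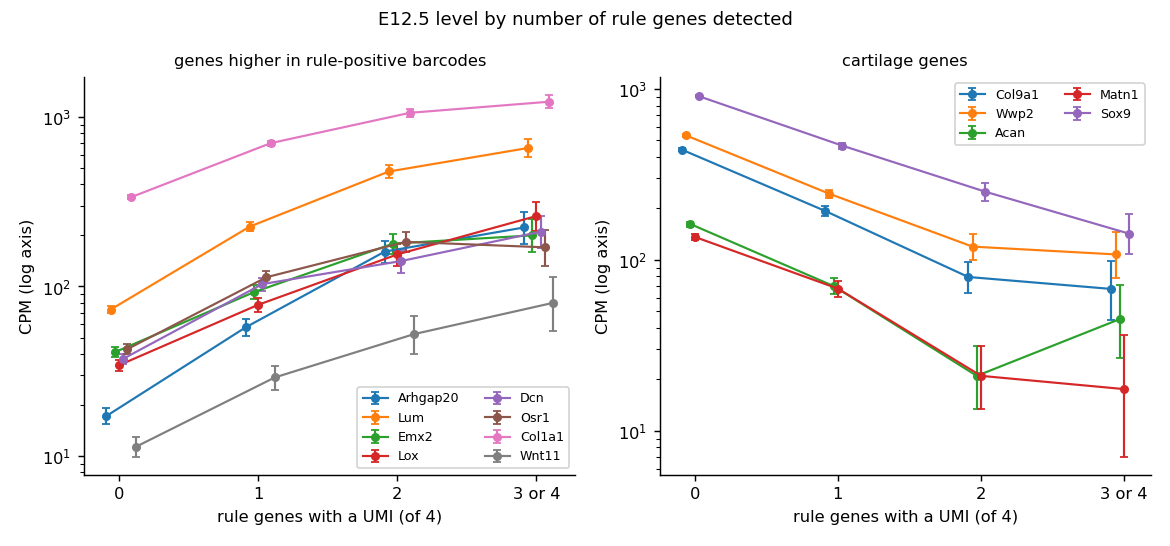
CPM (log axis) of 8 higher genes and 5 cartilage genes in E12.5 barcodes that met the exclusions, by the number of rule genes with a UMI, with 95% Poisson intervals. Lum runs from 73.0 CPM with no rule gene to 656 CPM with 3 or 4, and Sox9 from 907 to 143 CPM.

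Barcodes with a Grem1 UMI were left out, and some of them held another excluding gene too. In the 157 barcodes with 2 or more rule genes and Grem1, Lum stood at 591 CPM (528 to 659), Arhgap20 at 189 CPM, Col1a1 at 1208 CPM and Dcn at 244 CPM. All 20 higher genes were above the level of the other barcodes there, and 9 of the 20 were below that of the rule-positive barcodes. Sox9 stood at 207 CPM, next to 223 CPM in rule-positive barcodes.

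Cartilage genes made up most of the named lower genes. All 15 genes of the chondrocyte list were at least 2-fold lower (0.814% of all genes), with a median log2 ratio of -1.72, and all 15 were also at least 2-fold lower than in depth-matched barcodes (0.955%). Sox9, the factor that sets cartilage fate, stood at 223 CPM (200 to 247) against 776 CPM (767 to 786), and Col2a1, the cartilage collagen, at 331 against 1083 CPM. Col9a1, a type IX collagen chain, stood at 76.3 against 347 CPM, Acan, the aggrecan core protein, at 27.2 against 128 CPM, and Matn1, a cartilage matrilin, at 20.1 against 106 CPM. Wwp2, a ubiquitin ligase that hosts a cartilage miRNA, stood at 116 against 441 CPM. Sox9 was detected in 27.2% of thinned rule-positive barcodes and in 60.0% of depth-matched ones, next to 18.6% of endothelial and 14.6% of muscle barcodes. For Wwp2, Col9a1 and Acan the intervals of rule-positive barcodes overlapped those of endothelial and muscle barcodes, at 15.2%, 11.5% and 3.66% of rule-positive barcodes. They also overlapped both classes for Matn1, at 3.40% of rule-positive barcodes, and for Mia, Col9a3, Papss2 and Matn4. Expression of all these genes in the group could therefore not be told apart from free RNA. The Sox9 interval (22.8 to 32.0%) overlapped that of endothelial barcodes (12.6 to 25.9%). It lay above that of muscle barcodes (10.4 to 19.7%).

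Hbb-y and Hba-x, the embryonic globins, were the 2 named lower genes with the largest ratios. Hbb-y stood at 128 CPM in rule-positive barcodes, 1345 in the others and 3367 in the depth-matched barcodes. Detection did not differ in the same way, with a Hbb-y UMI in 15.2% of thinned rule-positive and 16.5% of depth-matched barcodes. For Hba-x the shares were 7.85% and 7.59%. In male barcodes alone the log2 ratios were -0.24 for Hbb-y and -0.28 for Hba-x, so the 2-fold calls were lost there.

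Wnt pathway genes are of interest because Dkk2 belongs to the pathway. Of 14 further inhibitors and targets with enough UMIs, 3 were at least 2-fold higher (0.455% of all genes) and 1 was lower (0.814%), and the list had a median log2 ratio of 0.17. Axin2, a feedback target of canonical Wnt signalling, stood at 113 CPM (96.4 to 131) against 40.2 CPM. Apcdd1, a membrane-bound Wnt inhibitor, stood at 69.2 CPM (56.7 to 83.6) against 17.3 CPM, and Wif1, a secreted inhibitor, at 67.3 against 25.3 CPM. Sfrp2, a secreted frizzled-related protein, was the lower gene, at 75.0 against 220 CPM, and Lef1, a nuclear effector, stood at 33.6 against 55.0 CPM. Of 9 ligand genes and R-spondins, Wnt11 was 2-fold higher (0.455% of all genes), at 59.5 against 14.9 CPM. Wnt5a stood at 263 against 164 CPM. None of 16 receptor genes was past 2-fold.

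Other signalling lists are read against 0.455% of all genes higher and 0.814% lower. Nog and Chrdl1, secreted BMP antagonists, were the lower genes of 24 in the BMP list, Nog at 2.59 against 26.1 CPM, with 4 UMIs in rule-positive barcodes. Ptch1, the hedgehog receptor and target, stood at 135 against 300 CPM and was the lower gene of 11 in its list. Fgfr3, an FGF receptor of cartilage, stood at 7.76 against 30.6 CPM and was the lower gene of 16. In the retinoic acid list of 11 genes, Crabp1 (376 against 155 CPM) and Stra6 (40.1 against 14.1 CPM) were higher, and Cyp26b1, a retinoic acid hydroxylase, was lower at 14.9 against 51.1 CPM. None of 13 TGF-beta genes was past 2-fold. Against depth-matched barcodes, where fewer list genes had enough UMIs, 3 of 8 FGF genes and 0 of 15 BMP genes were 2-fold lower (0.955% of all genes).

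The labelled class was checked against marker lists. Of 9 tested limb bud mesenchyme genes 1 was 2-fold higher (0.455% of all genes) and 3 were above 0, where 47.7% of all genes were. Their median log2 ratio was -0.04, with a sum of 1450 against 982 CPM. The examples named here are from the higher side, while most genes of the list were not above 0. Prrx1, a limb mesenchyme factor, stood at 1114 against 772 CPM and Twist1 at 234 against 104 CPM. Pdgfra, which is on the muscle connective tissue list, stood at 471 against 339 CPM. The 12 muscle markers summed to 82.8 CPM against 551 CPM, of which Tnnt1 gave 51.1 CPM, and Myf5 was at 0 UMIs. The 10 endothelial markers summed to 27.8 against 132 CPM, with Tie1 at 0, and the 9 immune markers to 12.3 against 62.5 CPM, with Tyrobp, C1qa and Lyz2 at 0. A count of 0 allows up to 1.94 CPM (3 counts of the total) in the summed rule-positive barcodes. The depth-matched barcodes, which also lacked Myog, Cdh5 and Ptprc, had 113, 25.9 and 33.6 CPM for the same lists. Schwann and neural crest markers summed to 35.6 against 46.5 CPM, and neuron markers to 18.1 against 16.2 CPM.

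Lists of later connective tissue cells differed among themselves. Of 7 tested genes on the dermal and late fibroblast list, Lum, Dcn and Crabp1 were 2-fold higher, where 0.455% of all genes were, and the list summed to 1194 against 435 CPM. Dpt, Clec3b and Pi16 had 0.647, 0.647 and 1.94 CPM in rule-positive barcodes. Of 9 tenocyte genes other than Kera none was past 2-fold against other barcodes. Against depth-matched barcodes 1 of 5, Scx, was 2-fold lower (0.955% of all genes). Scx, the tendon progenitor factor, stood at 31.0 CPM (22.9 to 41.2) against 65.3 CPM in other and 76.3 CPM in depth-matched barcodes. Tnmd stood at 5.82 against 3.13 CPM in other barcodes. Of 8 muscle connective tissue genes Osr1 alone was 2-fold higher (0.455% of all genes). Against depth-matched barcodes 2 of 7 were (0.903%). Tcf4 stood at 1190 against 1067 CPM and Osr2 at 89.3 against 73.8 CPM in other barcodes. Runx2, the osteoblast factor, stood at 50.5 against 115 CPM.

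Genes of limb position gave mixed values. Of 11 proximal limb genes 2 were 2-fold higher (0.455% of all genes), 3 were above 0 and the median log2 ratio was -0.11. Of 10 dorsal and anteroposterior genes 1 was 2-fold higher and 1 lower (0.814% of all genes). Of 6 hindlimb genes 1 was 2-fold lower and none higher. The lower genes of these last 2 lists are not among the examples below. Shox2, a homeobox factor of the proximal limb, stood at 1296 against 599 CPM (log2 ratio 1.10), while Meis2, also proximal, stood at 102 against 198 CPM. Lmx1b, the dorsal limb factor, stood at 77.6 CPM (64.4 to 92.8) against 31.3 CPM. Pitx1, a hindlimb factor, stood at 355 CPM (326 to 386) against 217 CPM, a log2 ratio of 0.68. It was detected in 42.7% of thinned barcodes against 30.4% of depth-matched ones. Tbx4, also of the hindlimb, stood at 47.2 against 52.0 CPM, and Tbx5, of the forelimb, at 88.0 against 80.1 CPM. Both limb pairs shared the library, so the source of a barcode cannot be read from a label.

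None of 25 proliferation genes was past 2-fold, and their sum was 5859 against 5532 CPM, or 6141 CPM in depth-matched barcodes. Top2a, a topoisomerase of dividing cells, stood at 1041 CPM against 923 CPM in other and 1055 CPM in depth-matched barcodes. A list of 13 stress response genes, of which 11 were tested, had a median log2 ratio of -0.06 and none past 2-fold.

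The barcodes also lay together by genes that the rule did not use. Leiden clusters made without the 9 rule genes and the proliferation list put 218 of the 466, or 46.8% (42.2 to 51.4%), into cluster 3, which held 8.96% of kept barcodes. Cluster 3 was led by Arhgap20, Lum, Emx2os, Tmem26 and Tmtc2. Cluster 5, led by histone genes, held 121 more (26.0%) and 6.72% of kept barcodes, and cluster 12, led by Dcn, Alx1 and Sall1, held 32 (6.87%). Of the 24 clusters 18 held at least 1. Rule-positive barcodes were 19.8% of cluster 3, 14.7% of cluster 5 and 7.19% of cluster 12, so most barcodes of these clusters did not meet the rule. Over all its barcodes, cluster 12 had Grem1 at 397 CPM, the highest of the 24 clusters. Clusters 3 and 5 had 61.0 and 77.6 CPM. Kera stood at 434 CPM in cluster 12 and at 125 and 101 CPM in clusters 3 and 5. Whether the rule-positive barcodes of cluster 12 lacked Grem1 RNA or only a Grem1 UMI was not tested. These clusters were given no cell type name.

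**Figure D4:**
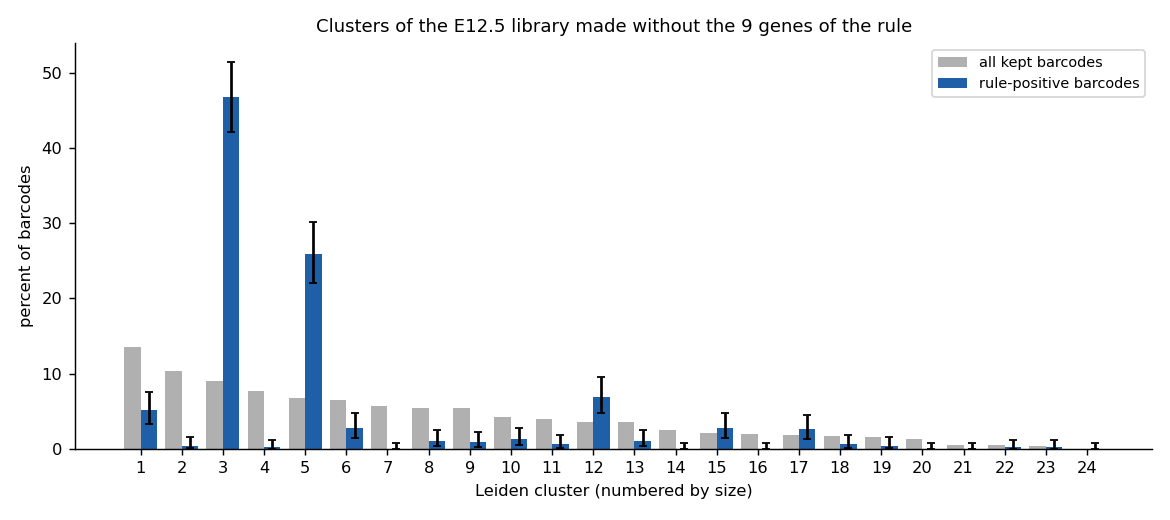
Percent of all kept E12.5 barcodes (grey) and of the 466 rule-positive barcodes (blue, with 95% exact binomial intervals) in each of 24 Leiden clusters made without the 9 rule genes. Cluster 3 holds 46.8% of rule-positive barcodes and cluster 5 holds 26.0%.

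Of the 15 neighbours of a rule-positive barcode, 27.3% on average were rule-positive, against 8.15% for barcodes with 1 rule gene, 1.35% for those with none and 3.79% over all kept barcodes. Barcodes left out for Grem1 had 26.8%. There were 12.4% of rule-positive barcodes with no rule-positive neighbour.

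Rule-positive barcodes differed between clusters. The clusters were made from the levels of genes outside the rule, and Dcn led cluster 12. Gaps in genes other than Calb2 therefore describe the clustering and are no separate support. Rule-positive barcodes in cluster 12 carried Dcn at 580 CPM (420 to 782). They carried it at 175 CPM (142 to 212) in cluster 3 and 133 CPM (103 to 168) in cluster 5. Calb2 was detected in 3 of the 32 in cluster 12 (9.38%), against 47.7% in cluster 3 and 49.6% in cluster 5. Pitx1 stood at 54.0 CPM (14.7 to 138) in cluster 12 and at 367 and 437 CPM in clusters 3 and 5. Hoxd11, a factor of the forearm and lower leg segment, ran the other way, at 175 CPM (93.4 to 300) in cluster 12 and 36.7 and 37.6 CPM in clusters 3 and 5. Axin2 stood at 27.0 CPM in cluster 12, from 2 UMIs, and at 138 and 131 CPM in clusters 3 and 5. The Lum and Emx2 intervals of the 3 clusters overlapped, at 610, 639 and 513 CPM for Lum and 176, 234 and 202 CPM for Emx2.

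Members with and without Calb2 were also compared. Between 190 barcodes with and 276 without a Calb2 UMI, 7 of 5351 genes (0.131%) were at least 2-fold higher and 13 (0.243%) lower. Camk4 stood at 95.6 CPM (73.3 to 123) with Calb2 and 15.6 CPM (8.53 to 26.2) without. Gap43 stood at 216 against 99.2 CPM and Hoxc10, a hindlimb Hox gene, at 131 against 56.8 CPM. Col14a1, a fibril-associated collagen chain, had 1 UMI with Calb2 and 56 without, or 1.54 against 62.4 CPM. Fat3, an atypical cadherin, stood at 47.8 against 154 CPM and Hoxd11 at 21.6 against 60.2 CPM. Barcodes without Calb2 had to hold 2 of the other 3 rule genes, so this contrast is also one of rule gene combinations.

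Fewer genes were past 2-fold for Kera and for Apod than for Calb2, and more for Dkk2. Each of these contrasts is likewise also one of rule gene combinations. Barcodes with Kera had Dcn at 210 CPM (181 to 242) against 86.6 CPM (65.2 to 113) without, and Ndnf, a secreted neuron-derived factor, at 95.5 against 25.2 CPM. The counts were 5 of 5351 genes higher (0.0934%) and 0 lower. Barcodes with Apod had Apcdd1 at 102 CPM (79.6 to 130) against 44.2 CPM (31.4 to 60.4) and Rspo3, a Wnt-enhancing R-spondin, at 90.4 against 38.5 CPM, with 5 genes higher (0.0934%) and 1 lower (0.0187%). Only 66 barcodes lacked Dkk2, and the part of this small group in the larger count was not tested. With Dkk2 against without, 86 genes (1.61%) were higher and 13 (0.243%) lower. Fat3 stood at 125 against 9.34 CPM, the latter from 2 UMIs, and Camk4 at 41.3 against 98.1 CPM. The higher genes Agpat4 and Bmpr1b had 1 UMI each in the barcodes without Dkk2. Calb2 itself stood at 212 CPM with Dkk2 and 626 CPM without, so this split overlaps the Calb2 one.

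Kera lies in a row of related genes, of which Dcn and Lum were not used by the rule and Kera was. On the plus strand of chromosome 10 in GRCm38, Dcn (97479609 to 97518143), Lum (97565128 to 97572703), Kera (97606879 to 97613692) and Epyc (97644068 to 97682454) are consecutive protein-coding genes of the small leucine-rich proteoglycan family. Epyc, epiphycan, a cartilage member, stood at 6.47 CPM (3.10 to 11.9) against 18.9 CPM (17.4 to 20.4), or 31.7 CPM in depth-matched barcodes. Over the family, Dcn and Lum were the 2 of 12 tested members past 2-fold, both higher (0.455% of all genes). Ogn stood at 161 against 79.7 CPM and Bgn at 41.4 against 44.9 CPM. The median log2 ratio of the family was 0.01.

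At E15.5 the same rule took 641 of 4106 kept barcodes, or 15.6% (14.5 to 16.8%). These had a median of 10107 UMIs, far above the E12.5 depth, and the shares of the 2 ages are not compared. Dkk2 was in 625 of them and Apod in 509, and Dkk2 with Apod was the commonest combination with 367 barcodes. Calb2 was found in 9 of 641 (1.40%), at 2.70 CPM against 0.710 CPM in other barcodes. In thinned E15.5 barcodes Kera was found in 11.9% of those with Dkk2 and 4.24% of those without.

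Of the 20 genes higher at E12.5, 19 had a ratio above 0 at E15.5 in both comparisons, where 48.4% of 13863 genes tested against other barcodes and 50.9% of 11447 tested against depth-matched barcodes did. At least 2-fold higher were 9 of them against other barcodes (0.491% of all genes) and 8 against depth-matched barcodes (0.507%). Lum stood at 777 against 282 CPM, Dcn at 1935 against 660 CPM, Lox at 264 against 85.8 CPM, Col1a1 at 4637 against 2071 CPM and Emx2 at 49.2 against 15.4 CPM. Camk4 stood at 4.996 against 4.78 CPM there. Prox1 had a ratio below 0, at 4.32 against 13.2 CPM. Of the 10 lower genes, 9 were at least 2-fold lower at E15.5 against other barcodes (1.59% of all genes) and 5 against depth-matched ones (0.76%).

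**Figure D5:**
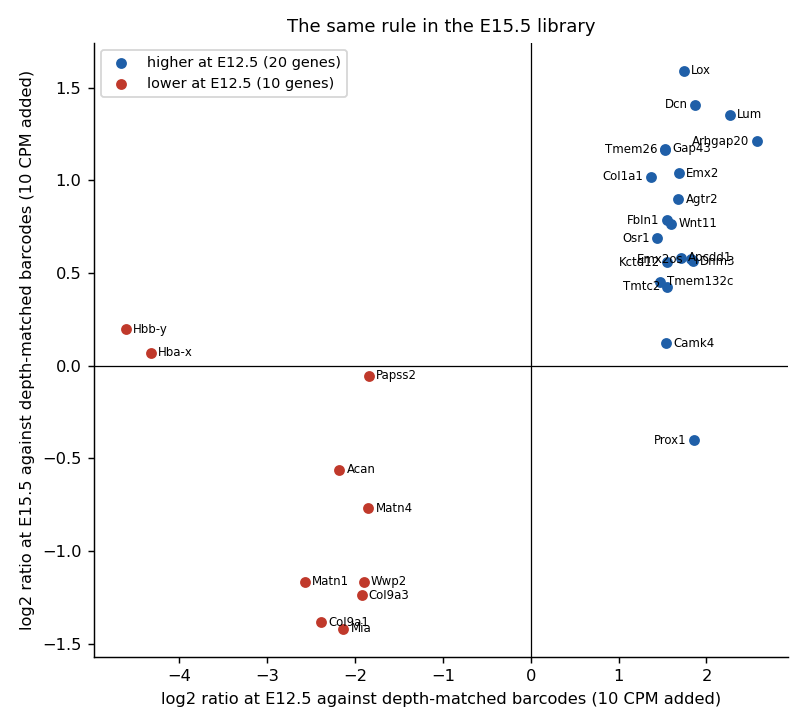
Log2 ratios against depth-matched barcodes for the 20 higher (blue) and 10 lower (red) named genes, at E12.5 (x axis) and under the same rule at E15.5 (y axis), with 10 CPM added. Of the blue points 19 lie above 0 at E15.5, Prox1 lies at -0.40, and 8 of the 10 red points lie below 0.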

How the data were processed

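Single-cell RNA libraries used 10x Chromium 3′ v3.1 chemistry, per the labels' protocols. The deposited values are raw UMI counts per gene and barcode, and the submitters' processing notes name Cell Ranger 4.0.0, Seurat 4.3.0 and build mm10. Annotation release and cell calling settings are not given in the sources used here. Of 32285 gene identifiers, 32158 matched GENCODE vM21 (GRCm38).

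Barcodes with at least 500 genes and under 10% mitochondrial UMIs were kept. At E12.5, 604 barcodes missed the gene minimum and 166 the mitochondrial limit, and at E15.5 these were 1376 and 644. Doublets were not removed, except as an alternative with Scrublet-like scores. UMIs were summed per group and scaled to CPM, with exact Poisson intervals. Shares have exact Clopper-Pearson intervals, and both cover counting error only. Log2 ratios had 10 CPM added, and genes with 50 UMIs or more over both groups were tested for 2-fold size, with no p-value. Depth-matched barcodes were the nearest in total UMIs, drawn 1 per member without replacement. Clusters used 2000 variable genes, 30 principal components, 15 neighbours and Leiden resolution 1 (Python 3.11.15, scikit-learn 1.9.0, leidenalg 0.10.2).

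Named higher genes had a UMI in at least 10% of rule-positive barcodes and the 20 largest values of the smaller of the 2 ratios (other and depth-matched barcodes). The 10 lower genes were taken in the same way, with detection in the depth-matched barcodes. List genes were named for size over 2-fold or high counts, and within-group and cluster examples after their values were seen. The members and lists were chosen with earlier results of these data known. The ratio script was tested on simulated data.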

Additional observations from a re-analysis of the deposited data

Results flagged for a closer look

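Only the 30 named genes and the genes of the lists were searched for opposite signs at the 2 ages. Of those at least 2-fold apart at E12.5, 6 had the other sign at E15.5, with counting intervals off 0 at both ages. Other genes were not searched. The difference between ages was not tested, since each age has 1 library. Prox1 had a log2 ratio of 1.52 at E12.5 and -0.70 at E15.5. It was detected in 21.7% of thinned E12.5 muscle barcodes, and the part of muscle RNA in either value was not tested. Sema3c, a secreted semaphorin, had -1.06 at E12.5 and 1.40 at E15.5, where it stood at 169 against 58.1 CPM. Sema3d had -1.38 and 1.33, and stood at 57.9 against 17.1 CPM at E15.5. Sfrp2 had -1.44 and 0.72, at 419 against 250 CPM at E15.5. Wif1 had 1.13 and -0.30, at 9.72 against 14.3 CPM at E15.5. Cspg4, a proteoglycan also known from mural cells, had -1.17 and 0.16. The E15.5 barcodes were taken by the same rule but held Calb2 in 9 of 641, so the rule gathered other combinations of genes there.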

How the results depend on the processing

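No paired analysis was possible because each age has 1 library. The count of genes at least 2-fold higher was 62, and moved to 94 with the highest doublet scores removed, 113 with 3 of 4 rule genes asked for, 94 without Dkk2 in the rule, 217 with 1 CPM added and 106 in male barcodes. The count of lower genes was 111, and moved to 72 against barcodes with the same exclusions, 168 with doublet scores removed, 184 without Dkk2, 256 with 3 of 4 rule genes, 886 with 1 CPM added and 434 in male barcodes. A smaller added value lets more low-count genes past 2-fold by construction, and the cause of the other moves was not tested. The median log2 ratio of the 20 higher genes was 1.56, and moved to 1.78 with doublet scores removed and 1.85 with 1 CPM added. Doublet scores removed 78 rule-positive barcodes (16.7%) and 10.1% of the others.

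The share of kept barcodes was 3.80%, and became 4.26% with a minimum of 1000 genes, 0.921% with 3 of 4 rule genes, 3.45% after thinning to 2000 UMIs and 5.28% without the exclusions. The share in the leading cluster was 46.8%, and became 51.9% at resolution 0.5 and 38.8% at 2.0. Over 30 named genes and 15 alternatives, 450 values in all, 94 shifted by more than the margin of the main counting interval. That interval was taken without the added CPM. The alternatives reuse the same counts, so the margin is a yardstick of size and no test. None of the values, 0 of 450, changed direction. The higher genes ranged from 0.82 (Camk4 in male barcodes) to 2.64, with 1 of 300 values under 1. Among the lower genes, Hbb-y and Hba-x moved from -3.29 and -3.05 to -0.24 and -0.28 in male barcodes and to -2.11 and -1.78 with a minimum of 1000 genes, and the other 8 ranged from -3.27 to -1.29. Depth limits the detection shares, with Lum at 70.8% unthinned and 43.0% at 1000 UMIs.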

Other observations

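Gene families of Calb2 and Apod, and axon guidance genes, were also counted. Of 17 other EF-hand calcium-binding genes, none was past 2-fold at E12.5, with a median log2 ratio of 0.17. S100a6 stood at 36.2 against 15.8 CPM, and Smoc2 at 146 against 94.3 CPM. Of 8 other apolipoproteins and lipocalins, Apoe was 2-fold lower (0.814% of all genes), at 11.6 against 49.5 CPM. It had a log2 ratio of -0.62 against depth-matched barcodes. Of 24 guidance genes, Sema3c, Sema3d and Unc5c were 2-fold lower (0.814% of all genes), and 15 were above 0 (47.7%). Against depth-matched barcodes 2 of 22 were 2-fold lower (0.955%). Unc5c stood at 40.8 against 119 CPM and Epha3 at 99.0 against 46.0 CPM. Hhip, a hedgehog-binding inhibitor, stood at 31.7 CPM against 16.5 CPM in other and 6.47 CPM in depth-matched barcodes.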
